A study of Mus musculus with 60 samples.

Results

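The comparison described here set the hippocampus (HPC) of vehicle injected mice taken in the middle of the dark phase against that of vehicle injected mice taken in the middle of the light phase. Its members were the 10 hippocampus samples whose labels gave vehicle injection, 5 from mid-dark (zeitgeber time 19 h, ZT19, counted from lights on) and 5 from mid-light (ZT7), of 56 samples with values and 60 listed in the series. All genes of the nanoString nCounter Mouse Neuroinflammation Panel, an assay that counts barcoded probes bound to each transcript without amplification, were described, and 769 of 770 could be tested, since 1 gene had a single value in HPC. Both groups were female Balb/C mice, 13 weeks old at collection, housed singly under a cycle of 14 h light and 10 h dark. They had received culture medium (DMEM) without cells in the inguinal mammary glands and had no mammary tumors. Tissue was taken 25 days later, after perfusion with saline. The tumor-bearing mice used for comparison differed in having received 67NR cells, a non-metastatic mouse mammary carcinoma line, and other regions came from the same vehicle mice. Each sample came from a separate mouse, and each group was a single time of day, so a difference between groups cannot be divided between clock time, light, sleep, feeding and activity.

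Mice are nocturnal, so mid-dark lies in their active phase and mid-light in their rest phase. Daily rhythms in cells arise from a transcriptional feedback loop of clock proteins, which act on many other genes partly through E-box elements, and body temperature, glucocorticoids and feeding add their own daily signals. In the hippocampus, a forebrain region known for memory, oligodendrocytes, microglia and astrocytes also change with sleep and wake. The loop itself could not be followed, because 0 of 17 core clock genes listed (among them Per1, Per2, Arntl, Nr1d1 and Dbp) were on the panel.

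The samples resembled each other closely, with a correlation over genes of 0.978 to 0.991 between pairs of vehicle HPC samples and medians of 8.07 to 8.09 on the log2 scale. The neuronal genes Slc17a7, Nrgn, Tbr1, Rbfox3, Gria1 and Mef2c were above hypothalamus and brain stem in every vehicle HPC sample, while Camk4 and Reln overlapped with brain stem. Neighbouring tissue varied between mice in both groups. Ttr, made by the choroid plexus, ran from 6.62 to 14.71 at mid-dark and from 7.71 to 14.01 at mid-light, and Slc17a6, high in thalamus, from 7.68 to 8.94 and from 7.20 to 10.05. RNA concentration averaged 1247 ng/µl at mid-dark and 1262 ng/µl at mid-light (exact permutation test, two-sided, p = 0.984, n = 5 and 5). The absorbance ratios, body mass and spleen mass gave exact p values of 0.381 to 0.865, all 0.984 after adjustment over the 5 measures. Mouse 12 of the mid-dark group had the lowest RNA concentration, 381.7 ng/µl, and the lowest 260/280 ratio, 1.79.

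A small set of genes differed with time of day, with the smallest p values at Pllp and Opalin, followed by Nwd1 and Hspb1. Pllp and Opalin, both of the myelin sheath, fell at mid-dark to 0.557 and 0.487 of their mid-light level, and Hspb1, a small heat shock protein, rose 1.78-fold. With limma's moderated test (two-sided, Benjamini-Hochberg adjustment over 769 genes, all 4 HPC groups sharing 1 estimate of the spread), 18 genes passed an adjusted p of 0.05, which is 2.34% of the panel. Of these, 11 (1.43% of the panel) were higher and 7 (0.91%) were lower at mid-dark. The count was 10 with the vehicle groups alone in the fit and 8 to 24 on leaving out 1 mouse (8 without mouse 32). Pllp, Opalin, Nwd1, Hspb1, Hdac4, Calr, Apoe and Tbc1d4 passed in all of these fits. Apoe did so on values tied by quantile normalization, as described below. Nwd1, Hdac4, Calr and Tbc1d4 lost their call with the mean of the panel's 13 reference genes subtracted. Lars, Slamf9, Rad51c, Mertk, Traf3, Pms2, Ifnar2, Myc and Ets2 lost their call with the vehicle groups alone. The changes of the 18 ran from 1.17-fold to 2.05-fold in size. The groups did not overlap in 32 of 769 genes (4.16%), and 13 of these 32 were among the 18. By an ordinary p under 0.05 in the same 4-group model, 128 genes (16.6%) passed, 67 higher (8.71%) and 61 lower (7.93%) at mid-dark. The study applied that cutoff to another contrast, tumor against vehicle. With the vehicle groups alone in the fit, 63 passed as higher and 57 as lower. The median difference over all genes was 0.002 on the log2 scale. By size, 30 genes lay beyond 2 SD of the differences over genes (below -0.43 or above 0.44), of which 6 were among the 18, 17 passed the ordinary p and 19 had a mean log2 value under 5, a range that held 146 genes (19.0%).

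**Figure D1:**
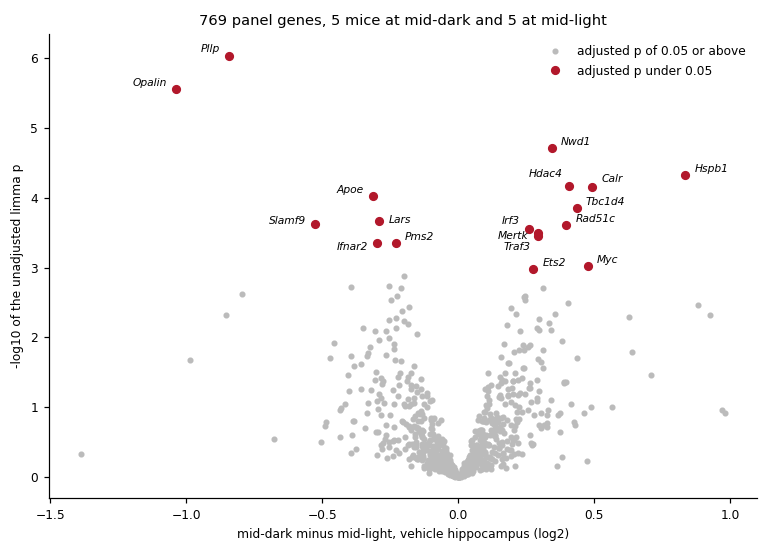
Each point is 1 of 769 panel genes in the hippocampus of vehicle mice, with the mid-dark minus mid-light difference in mean log2 value on the x axis and -log10 of the unadjusted limma p on the y axis, 5 mice a group. The 18 named red points passed an adjusted p of 0.05, with Pllp and Opalin to the lower left in difference and highest in the plot, and Hspb1 farthest to the right among the red points.

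Pllp encodes plasmolipin, a proteolipid of compact myelin. Its log2 values were 7.56, 7.65, 7.69, 7.69 and 7.95 in the mid-dark mice and 8.42, 8.46, 8.55, 8.56 and 8.77 in the mid-light mice. Every mid-dark mouse was below every mid-light mouse, and the gap between the groups exceeded the range within either of them. The difference was -0.84 (SE 0.12, adjusted p = 0.000703), the smallest p on the panel. Opalin, a membrane glycoprotein of oligodendrocytes found at the inner loop and paranodal loops of myelin, had the largest difference among the 18 genes. Its values were 8.64, 8.68, 8.69, 8.77 and 8.82 at mid-dark against 9.38, 9.80, 9.84, 9.86 and 9.91 at mid-light. The groups again stood apart, with mouse 30 lowest of the mid-light mice. The difference was -1.04 (SE 0.16, adjusted p = 0.00107), so the mid-light level was 2.05-fold the mid-dark level.

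Most other myelin genes were slightly lower at mid-dark and did not pass. Of 27 oligodendrocyte and myelin genes, 22 were lower and 5 higher at mid-dark, with a median difference of -0.17. Over the panel, 379 of 769 genes were lower, and 61 passed the ordinary p as lower. Pllp and Opalin passed the adjusted p, and Mog, Cnp and Fa2h passed the ordinary p only. With the mean of the panel's 13 reference genes subtracted, 6 of the 27 passed the ordinary p as lower. With the reference gene Asb10 left out of that mean, 2 of the 27 did. Mog, a glycoprotein of the outer myelin surface, had values of 9.56, 9.69, 9.87, 9.89 and 9.97 at mid-dark against 9.90, 10.18, 10.19, 10.26 and 10.46 at mid-light, a difference of -0.40 (SE 0.18, adjusted p = 0.272). The groups overlapped for Mog. The oligodendrocyte transcription factors Sox10 and Myrf differed by 0.04 and 0.13, and neither passed either threshold. The summed level of the 27 genes (log2 of the summed linear values) ran from 15.83 to 16.11 at mid-dark and from 15.83 to 16.28 at mid-light, and without Pllp and Opalin from 15.82 to 16.10 and from 15.81 to 16.26, so the total myelin signal overlapped. In bulk tissue, fewer cells of a type and less RNA per cell cannot be told apart.

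The promoter windows of Pllp, Opalin, Hspb1 and Calr are printed here, 250 bases up to the transcription start (RefSeq, GRCm38.p6), read 5′ to 3′ on the strand of the gene. Pllp lies at chr8:94696243-94696492 (minus strand), Opalin at chr19:41077114-41077363 (minus), Hspb1 at chr5:135887669-135887918 (plus) and Calr at chr8:84846932-84847181 (minus). Capitals mark the E-box CACGTG, the only exact match in these windows to the motif letters searched. Nwd1 and Hdac4, also among the genes with the smallest p, are not printed, and their promoters held no exact match.

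Pllp: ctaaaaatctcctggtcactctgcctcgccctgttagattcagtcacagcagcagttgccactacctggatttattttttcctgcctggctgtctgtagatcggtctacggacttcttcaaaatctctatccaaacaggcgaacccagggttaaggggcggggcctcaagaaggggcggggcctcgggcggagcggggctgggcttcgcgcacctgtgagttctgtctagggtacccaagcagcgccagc

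Opalin: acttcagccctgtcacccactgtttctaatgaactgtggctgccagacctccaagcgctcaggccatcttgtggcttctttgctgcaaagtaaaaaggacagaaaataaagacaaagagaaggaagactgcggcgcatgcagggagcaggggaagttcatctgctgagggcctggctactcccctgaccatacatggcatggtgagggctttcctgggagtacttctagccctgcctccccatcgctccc

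Hspb1: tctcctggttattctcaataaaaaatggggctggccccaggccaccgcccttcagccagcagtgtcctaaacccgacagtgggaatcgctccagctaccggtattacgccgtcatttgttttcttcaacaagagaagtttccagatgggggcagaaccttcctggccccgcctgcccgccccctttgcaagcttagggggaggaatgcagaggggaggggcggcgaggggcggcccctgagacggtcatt

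Calr: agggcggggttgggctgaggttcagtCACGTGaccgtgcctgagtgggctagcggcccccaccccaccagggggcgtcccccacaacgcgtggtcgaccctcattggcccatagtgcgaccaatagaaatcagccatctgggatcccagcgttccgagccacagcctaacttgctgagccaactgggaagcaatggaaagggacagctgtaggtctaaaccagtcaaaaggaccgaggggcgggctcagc

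Both strands of 300 bases around each start (250 before, 50 after) were searched for the E-box CACGTG, the D-box TTATGTAA, the cAMP response element TGACGTCA, the heat shock element and the glucocorticoid receptor hexamer AGAACA. Of 18 genes, 16 had a promoter in the table. The E-box stood in those of Calr, 224 bases before the start, and Slamf9. It stood in 7.15% of 32851 mouse promoters and in 9.5% of 800 promoters of panel genes. These shares count promoters, of which a gene can have several, whereas the 16 are genes. The cAMP element stood in that of Rad51c (1.79% of all, 2.88% on the panel) and the hexamer in those of Apoe and Tbc1d4 (19.0% and 14.1%). The D-box (0.938% of all, 0.5% on the panel) and the heat shock element (0.603% and 0.625%) had an exact match in 0 of 16. Heat shock arrays that depart from the letters given were not searched, so their absence is not shown. These counts describe letters in 1 window and were not tested.

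Of the chaperone genes, Hspb1 and Calr rose at mid-dark. Hspb1, which binds unfolding proteins and rises with heat and other stress, had log2 values of 7.93, 7.94, 8.20, 8.60 and 8.61 at mid-dark against 7.22, 7.36, 7.44, 7.44 and 7.64 at mid-light. All mid-dark mice were above all mid-light mice, and the mid-dark mice were the more spread (SD 0.34 against 0.15). Hspb1 rose by 0.83 (SE 0.16, adjusted p = 0.00894). Calr, or calreticulin, a calcium-binding chaperone of the endoplasmic reticulum, had values of 13.90, 14.01, 14.01, 14.23 and 14.23 at mid-dark against 13.50, 13.50, 13.55, 13.61 and 13.77 at mid-light. Calr rose by 0.49 (SE 0.10, adjusted p = 0.00894) without overlap, a 1.41-fold change. The Calr values also follow rank steps, as described with Apoe below. Of 11 chaperone genes listed, 4 were measured. Bag3, a co-chaperone, differed by 0.12 (adjusted p = 0.578), and all 4 were higher at mid-dark, with a median of 0.31. Beside them, 390 of 769 genes on the panel were higher.

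Apoe, the main lipid carrier made by astrocytes, fell by 0.31 (SE 0.06, adjusted p = 0.0104). Its values were 13.90 in 4 mid-dark mice and 14.01 in the remaining one, mouse 4, against 14.23 in all 5 mid-light mice. The equal values came from quantile normalization, which gives every sample nearly the same value at each rank, and among the most abundant genes a rank is a wide step. Apoe was the gene of rank 5 from the top in all mid-light mice, of rank 7 in 4 mid-dark mice and of rank 6 in mouse 4. Calr passed above Apoe in 4 mid-dark mice and in 0 mid-light mice, and Nptx1, a neuronal pentraxin of synapses, stood above Apoe in the same 4 mice. In mouse 4, Ttr stood above Apoe instead. The Apoe and Calr values are therefore linked through their ranks, and the size of the Apoe difference is set by the values at ranks 5 to 7. Calr stood at ranks 5 to 7 at mid-dark and 8 to 12 at mid-light. The size of the Calr difference is likewise set by the values at its ranks. The ties of Apoe left no spread among the mid-light mice. The SE and p values of Apoe thus do not measure how its level varied between those mice.

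**Figure D2:**
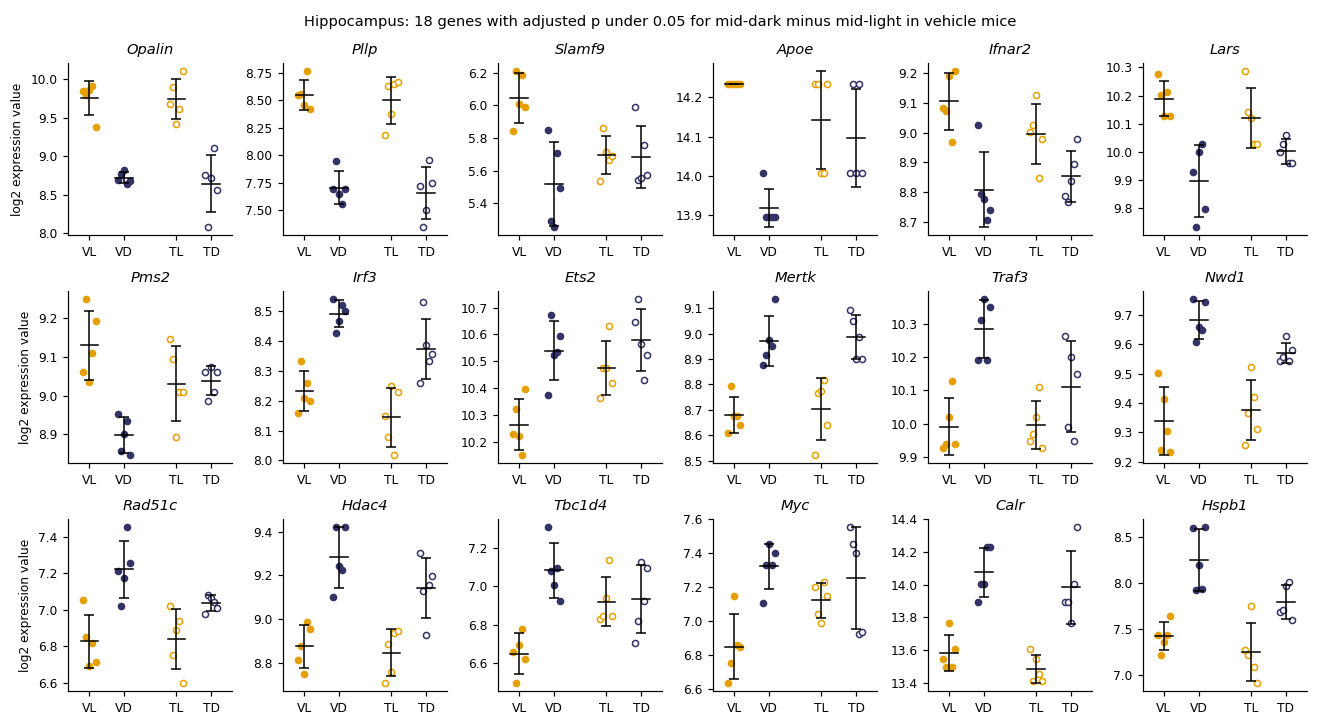
Log2 value of each mouse (points) with group mean and SD (bars) for the 18 genes past an adjusted p of 0.05 in vehicle hippocampus, ordered by difference from Opalin to Hspb1. VL and VD are vehicle mice at mid-light and mid-dark (filled), TL and TD tumor mice (open), 5 mice each. Pllp, Opalin and Calr separate by time of day in both sets of mice, while Apoe, Slamf9, Tbc1d4 and Pms2 separate or shift in vehicle mice and lie together in tumor mice.

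Nwd1, Hdac4, Tbc1d4, Rad51c, Myc and Ets2 also rose at mid-dark. Nwd1, which encodes a protein with NACHT and WD repeat domains, had values of 9.61, 9.65, 9.66, 9.74 and 9.75 at mid-dark against 9.23, 9.24, 9.30, 9.41 and 9.50 at mid-light. It rose by 0.34 (SE 0.06, adjusted p = 0.00501) without overlap. Hdac4, a class IIa histone deacetylase that shuttles between cytoplasm and nucleus, had values of 9.10, 9.22, 9.24, 9.42 and 9.42 at mid-dark against 8.75, 8.81, 8.88, 8.95 and 8.99 at mid-light. Hdac4 rose by 0.41 (SE 0.08, adjusted p = 0.00894), also without overlap. Tbc1d4, a Rab GTPase-activating protein through which insulin controls glucose transporter traffic, ran from 6.92 to 7.31 at mid-dark and from 6.49 to 6.78 at mid-light, and rose by 0.43 (adjusted p = 0.0133). Rad51c, of homologous recombination repair, rose by 0.40 (adjusted p = 0.0172). Myc and Ets2, both transcription factors of growth signalling, rose by 0.48 (adjusted p = 0.0435) and 0.27 (adjusted p = 0.0455). The mid-dark and mid-light ranges of Rad51c, Myc and Ets2 overlapped, and of 18 other settings Myc lost its call in 12 and Ets2 in 10.

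Genes of innate immune signalling passed in both directions. Irf3, the transcription factor that starts type I interferon production, had values of 8.43, 8.47, 8.50, 8.52 and 8.54 at mid-dark against 8.16, 8.20, 8.21, 8.26 and 8.33 at mid-light. It rose by 0.26 (SE 0.06, adjusted p = 0.0178) without overlap. Mertk, the receptor with which microglia and astrocytes engulf dying cells and synapses, ran from 8.88 to 9.14 at mid-dark and from 8.61 to 8.79 at mid-light, and rose by 0.29 (SE 0.07, adjusted p = 0.0187). Traf3, an adaptor of pattern recognition and TNF family receptors, rose by 0.29 (adjusted p = 0.0194), with no overlap between 10.19 to 10.37 and 9.93 to 10.13.

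In the other direction, Ifnar2, a subunit of the type I interferon receptor, fell by 0.30 (adjusted p = 0.0211), with values of 8.71 to 8.79 in 4 mid-dark mice, 9.03 in mouse 4 and 8.97 to 9.21 at mid-light. Slamf9, a receptor of the SLAM family on myeloid cells, fell by 0.53 (SE 0.12, adjusted p = 0.0172) at a low level, from 5.25 to 5.85 at mid-dark and from 5.84 to 6.21 at mid-light, a narrow overlap. Pms2, of DNA mismatch repair, fell by 0.23 (adjusted p = 0.0211) without overlap. Lars, the leucyl tRNA synthetase and a reference gene of the panel, fell by 0.29 (SE 0.06, adjusted p = 0.0172), from 9.73 to 10.03 at mid-dark against 10.13 to 10.27 at mid-light. The groups of Lars did not overlap, and it was the only 1 of 13 reference genes past the adjusted p.

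The 6 genes with the next smallest p missed the threshold. Cx3cr1, the fractalkine receptor of microglia, was at 10.02, 10.07, 10.15, 10.15 and 10.18 at mid-dark against 10.29, 10.29, 10.30, 10.31 and 10.38 at mid-light (difference -0.20, adjusted p = 0.0538). P2ry12, the purine receptor of resting microglia, had a difference of -0.25 (adjusted p = 0.0652) and Tgfbr1, a receptor of TGF-β signalling that microglia depend on, one of -0.21 (adjusted p = 0.0652). None of these 3 overlapped between groups. Hpgds, a prostaglandin D synthase also found in microglia, differed by -0.40 (adjusted p = 0.0652) with overlap. Dapk1, a kinase of cell death pathways, differed by 0.31 (adjusted p = 0.0652) and Ctsw, a protease of cytotoxic lymphocytes near the lower end of the scale at a mean of 3.64, by -0.80 (adjusted p = 0.0755).

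Genes tied to daily signals did not pass the adjusted p. Of 13 regulators that act on the clock (histone acetylases, kinases and related genes), 11 were higher at mid-dark and 2 passed the ordinary p, Ep300 (0.17, adjusted p = 0.158) and Crebbp (0.22, adjusted p = 0.170), both acetylases and coactivators of clock transcription. Their median was 0.10. On the whole panel, 390 of 769 genes were higher, and 67 passed the ordinary p as higher. With the mean of the 13 reference genes of the panel subtracted, 0 of 13 passed and the median was 0.04. With Asb10 left out of that mean, 2 of 13 passed and the median was 0.11. Timeless, of replication forks, differed by 0.13 (adjusted p = 0.626). Of 7 measured glucocorticoid and feeding linked genes, Cdkn1a (0.35, adjusted p = 0.0969) and Fkbp5 (0.33, adjusted p = 0.109) passed the ordinary p as higher and Hsd11b1 (-0.19, adjusted p = 0.286), which regenerates active glucocorticoid, as lower. Fkbp5, a co-chaperone that glucocorticoids induce, ran from 8.79 to 9.27 at mid-dark and from 8.61 to 8.92 at mid-light.

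The 13 activity genes, induced within minutes to hours by neuronal firing, varied mainly between mice. Their counts and those of the neuronal lists below stand beside 67 of 769 panel genes (8.71%) past the ordinary p as higher. As lower, 61 panel genes (7.93%) passed. Of the activity genes, Gadd45g alone passed the ordinary p, as higher (0.26, adjusted p = 0.159), and the median was 0.06. Egr1 was at 10.02, 10.41, 10.44, 11.17 and 11.19 at mid-dark against 10.66, 10.81, 10.95, 11.37 and 11.37 at mid-light, a difference of -0.39 with an SE of 0.26 (adjusted p = 0.506). Arc, which acts at synapses, differed by 0.20 (SE 0.28) and Fos by -0.11 (SE 0.37), with groups that overlapped. Jun differed by 0.22 (adjusted p = 0.348). Of 30 synaptic and neuronal genes, 1 passed the ordinary p, the glutamate receptor Grm3 (-0.32, adjusted p = 0.162), with a median of 0.05. Pacsin1, of synaptic vesicle uptake, differed by 0.10 and Mapt, the microtubule protein tau, by 0.08 (adjusted p = 0.457 and 0.481). Of 7 forebrain and interneuron transcription factors 0 passed, and Dlx2, Mef2c and Tbr1 differed by -0.30, -0.17 and 0.20.

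Glial and vascular genes were counted beside the panel, on which 61 of 769 genes (7.93%) passed the ordinary p as lower and 67 (8.71%) as higher, and no list was tested against it. Of 14 measured homeostatic microglia genes, 5 passed the ordinary p, all lower at mid-dark (Cx3cr1, P2ry12, Tgfbr1, Tyrobp and Csf1r), and 0 passed the adjusted p; the median was -0.11. Their summed level ran from 12.82 to 12.99 at mid-dark and from 12.96 to 13.10 at mid-light. Of 19 complement and phagocytosis genes, 5 passed as lower (Ctss, Cd68, C3ar1, C1qb and Lgmn) and Mertk as higher, with a median of -0.11. Ctss, a lysosomal protease of microglia, was at 10.18 to 10.49 at mid-dark against 10.49 to 10.65 at mid-light (-0.25, adjusted p = 0.0770), and Cd68, a lysosomal membrane protein, differed by -0.29 (adjusted p = 0.148). Of 12 astrocyte genes, 4 passed as lower (Apoe, Gja1, Egfr and Aldh1l1), with a median of -0.09. Gja1, the astrocyte gap junction protein, was at 12.62 to 13.08 at mid-dark and 12.90 to 13.15 at mid-light (-0.26, adjusted p = 0.138). The summed astrocyte level ran from 15.35 to 15.48 at mid-dark and from 15.56 to 15.61 at mid-light, but without Apoe the ranges were 14.69 to 14.90 and 14.83 to 14.91 and overlapped. Of 12 endothelial genes, 3 passed as lower (Esam, Icam2 and Jam2), with a median of -0.10. Esam, an adhesion protein of endothelial junctions, was at 8.20 to 8.42 at mid-dark against 8.47 to 8.59 at mid-light without overlap (-0.19, adjusted p = 0.110).

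Inflammatory genes were read beside 128 of 769 genes (16.6%) past the ordinary p on the panel. Of 24 cytokine, chemokine and inflammasome genes, 1 passed, the chemokine Ccl5, at 3.73 to 4.46 at mid-dark and 2.87 to 3.78 at mid-light (0.63, adjusted p = 0.0997). The median of the list was -0.05, and Myd88, the adaptor of Toll-like receptors, differed by 0.18 (adjusted p = 0.348). Of 22 interferon genes, Irf3 passed as higher and Ifnar2, Psmb8 and Ifih1 as lower, with a median of -0.10. Of 16 blood leukocyte genes 0 passed, with Nkg7 at a difference of 0.26, and their summed level of 8.06 to 8.35 at mid-dark overlapped with 8.14 to 8.28 at mid-light. Of 5 choroid plexus and ependymal genes 2 were measured, Ttr (-1.39, SE 1.90) and Trp73 (-0.04), and 0 passed.

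The chromatin list had the most members past the ordinary p as higher at mid-dark. Of 41 measured histone and DNA methylation enzymes, 12 passed the ordinary p as higher and 1 as lower, against 67 and 61 of 769 over the panel, and the median was 0.11. Hdac4 alone passed the adjusted p. Kmt2c, a histone H3 methylase, differed by 0.30 (adjusted p = 0.103), Kdm2b, a histone demethylase, by 0.23 (adjusted p = 0.117) and Dnmt1, the maintenance DNA methylase, did not overlap between groups. This count depended on which reference genes were used for scaling. With the mean of the 13 reference genes subtracted, 2 passed as higher and 2 as lower, and the median of all genes moved to -0.06. The reference gene Asb10, at a mean of 3.23, had a difference of 0.98 (SE 0.60, adjusted p = 0.461), and with Asb10 left out 13 passed as higher and 1 as lower. Under the same 13-gene scaling, the panel-wide counts by ordinary p became 22 higher and 84 lower, and the adjusted calls 1 higher and 9 lower. Nwd1, Hdac4, Calr, Tbc1d4, Rad51c, Irf3, Mertk, Traf3, Myc and Ets2 lost their call there, and Hspb1 alone stayed called as higher. Without Asb10 the adjusted calls were 11 higher and 7 lower.

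The next lists stand beside 67 of 769 panel genes (8.71%) past the ordinary p as higher and 61 (7.93%) as lower. Of 43 DNA damage and repair genes, 7 passed as higher and 4 as lower. Rad51c (0.40) and Pms2 (-0.23) passed the adjusted p in opposite directions, and the list median was 0.00294. The 13-gene scaling turned the 7 and 4 to 1 higher and 10 lower, beside 22 and 84 over the panel. With Asb10 left out of it, 8 passed as higher and 5 as lower, beside 73 and 49 over the panel. Of 21 autophagy genes, 4 passed as higher, among them the initiating kinase Ulk1 (0.19, adjusted p = 0.0870) and Epg5 (0.15, adjusted p = 0.281), and the receptor Optn as lower (-0.15, adjusted p = 0.124, no overlap). Under the 13-gene scaling 0 autophagy genes passed as higher and 1 as lower, and with Asb10 left out 3 passed as higher and 1 as lower. Of 8 antioxidant genes 1 passed as higher, Srxn1 (0.20), and 3 as lower, Prdx1 (-0.23, adjusted p = 0.0755), Nqo1 (-0.40) and Gclc (-0.06). Of 8 ribosomal protein genes 2 passed as lower, Rps10 (-0.22) and Rps21 (-0.19). That count was 3 under the 13-gene scaling and 0 with Asb10 left out of it. Of 13 reference genes, Lars passed as lower and Cnot10 (0.18, adjusted p = 0.214) as higher.

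**Figure D3:**
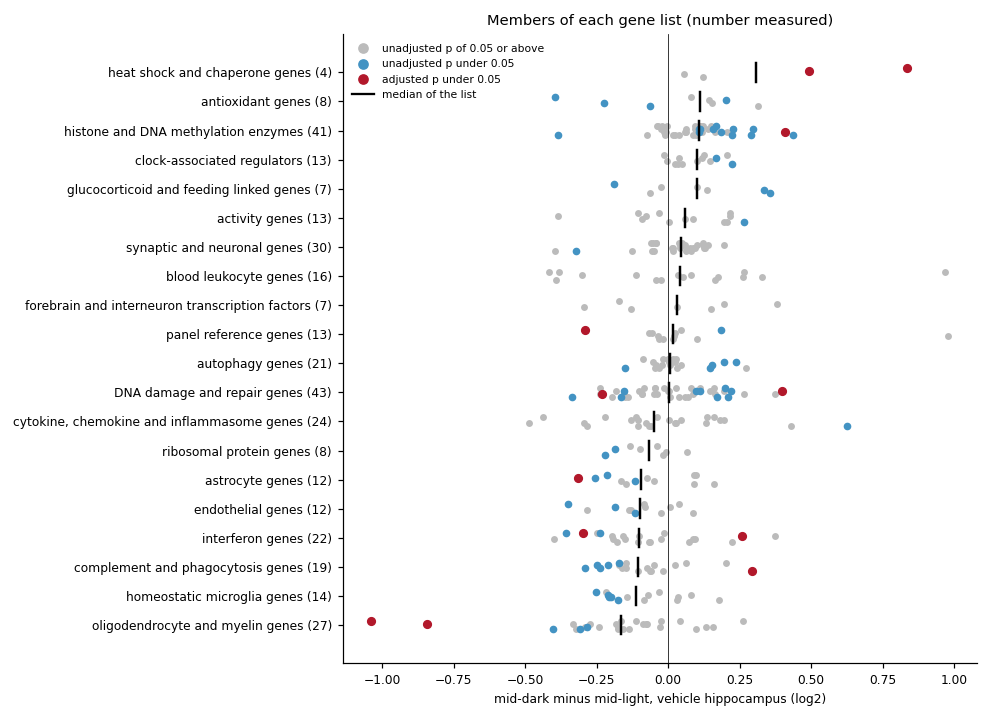
Each point is a gene, placed at its mid-dark minus mid-light log2 difference in vehicle hippocampus and set in the list it belongs to, with the number of measured members in brackets and the list median as a black bar. Grey, blue and red mark genes that passed neither threshold, the ordinary p under 0.05, and the adjusted p under 0.05. Pllp and Opalin stand far to the left of the remaining 25 myelin genes, and 12 histone and DNA methylation enzymes past the ordinary p lie to the right of 0.

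The same time contrast in tumor-bearing mice, which were other animals, gave 8 genes past the adjusted p (1.04% of 769), 97 past the ordinary p (12.6%) and 15 without overlap (1.95%). Pllp and Opalin were lower at mid-dark there by almost the same amount as in vehicle mice, and Calr and Mertk higher. Pllp was at 7.35, 7.50, 7.72, 7.75 and 7.96 in tumor mice at mid-dark and at 8.18, 8.38, 8.63, 8.65 and 8.67 at mid-light (-0.84, adjusted p = 0.000501). Opalin ran from 8.08 to 9.11 at mid-dark and from 9.42 to 10.11 at mid-light (-1.10, adjusted p = 0.000501). Calr rose by 0.50 (adjusted p = 0.0115) and Mertk by 0.28 (adjusted p = 0.0430), while Hspb1 differed by 0.54 (adjusted p = 0.134) with values of 7.60 to 8.02 against 6.91 to 7.75.

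Of the 18 genes called in vehicle mice, 17 had the same sign in tumor mice, beside 436 of 769 genes (56.7%) on the whole panel. Of the 18, 4 also passed the adjusted p there, 9 had an unadjusted limma p under 0.05 and 6 did not overlap. The test of the difference between vehicle and tumor mice called 0 of 769 genes (limma interaction, lowest adjusted p = 0.509, 47 genes at unadjusted p under 0.05), so no gene was shown to respond differently in the 2 sets. Of the 18, 4 were among those 47. Apoe differed by -0.31 in vehicle and -0.05 in tumor mice, Slamf9 by -0.53 and -0.01, Tbc1d4 by 0.43 and 0.01, and Pms2 by -0.23 and 0.01. Across 769 genes the differences in vehicle and tumor mice correlated at r = 0.28, given as a description, since the genes are not independent and share normalization.

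The myelin list was set side by side in both sets of mice, and its difference between them as a list was not tested. All 27 oligodendrocyte and myelin genes were lower at mid-dark in tumor mice, 20 passed the ordinary p, and the median was -0.37, against 22 lower, 5 passing and a median of -0.17 in vehicle mice. Over the panel, 35 of 769 genes passed as lower in tumor mice and 61 in vehicle mice, with medians of 0.01 and 0.002. Cnp (-0.64), Fa2h (-0.60) and Mag (-0.65) passed the adjusted p in tumor mice beside Pllp and Opalin, with -0.29, -0.31 and -0.29 in vehicle mice. Of the 27 genes, 4 had an unadjusted interaction p under 0.05 and 0 an adjusted one. The microglia list gave medians of -0.11 in vehicle and 0.06 in tumor mice, with 3 of 14 members at an unadjusted interaction p under 0.05 and 0 adjusted. The chromatin list gave medians of 0.11 and 0.04.

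**Figure D4:**
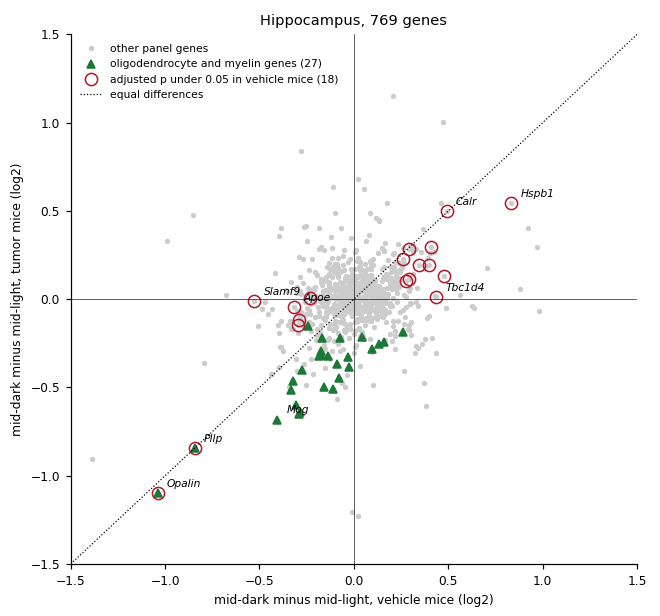
Mid-dark minus mid-light log2 difference in hippocampus of vehicle mice (x axis) and tumor mice (y axis) for 769 genes, with the 27 oligodendrocyte and myelin genes as green triangles, the 18 genes called in vehicle mice ringed, and a dotted line of equal differences. Pllp, Opalin and Calr lie on the line, the other myelin genes lie below 0 on the y axis, and Apoe, Slamf9 and Tbc1d4 lie near 0 on it.

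The other regions of the same vehicle mice showed the leading genes too. In hypothalamus (3 mid-dark and 4 mid-light mice) 8 of 770 genes passed the adjusted p (1.04%), and in brain stem (4 and 5 mice) 13 of 770 (1.69%), in a model of the 3 regions with the mouse as a random block. Opalin differed by -1.03 in hypothalamus and -1.28 in brain stem, Pllp by -0.61 and -0.79, and Hspb1 by 0.81 and 0.74, and all of these passed in both. Irf3 rose by 0.33 and 0.36. Nwd1 (0.28) and Calr (0.37) rose in brain stem, where hypothalamus gave 0.25 and 0.22. Since the regions share their mice, these values are set side by side and are no separate evidence. Of the 18 genes, 4 passed the adjusted p in hypothalamus and 6 in brain stem.

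Of the 27 myelin genes, 10 were lower at mid-dark in hypothalamus (median 0.02) and 16 in brain stem (median -0.04). The panel medians there were 0.0019 and 0.00014. Cdkn1a, a cell cycle inhibitor under p53 and glucocorticoid control, rose in hypothalamus (0.46, adjusted p = 0.0341) and in brain stem (0.65, adjusted p = 0.000233), and in HPC was at 7.66 to 8.01 at mid-dark against 7.32 to 7.60 at mid-light without passing. The test of the difference between regions called 1 gene. Apoe fell at mid-dark by 0.31 in HPC and differed by -0.02 in brain stem, a gap of -0.30 (limma, adjusted p = 0.0128), and by -0.04 in hypothalamus, a gap of -0.28 (adjusted p = 0.0740). The Apoe values in this test were tied by rank, as described above. The Apoe call was lost with the reference gene mean subtracted (0 genes), with or without Asb10, and on leaving out mouse 2, 6, 12, 22, 28 or 32. Against hypothalamus 0 genes were called, with 39 at unadjusted p under 0.05, and against brain stem 42 genes were at unadjusted p under 0.05.

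**Figure D5:**
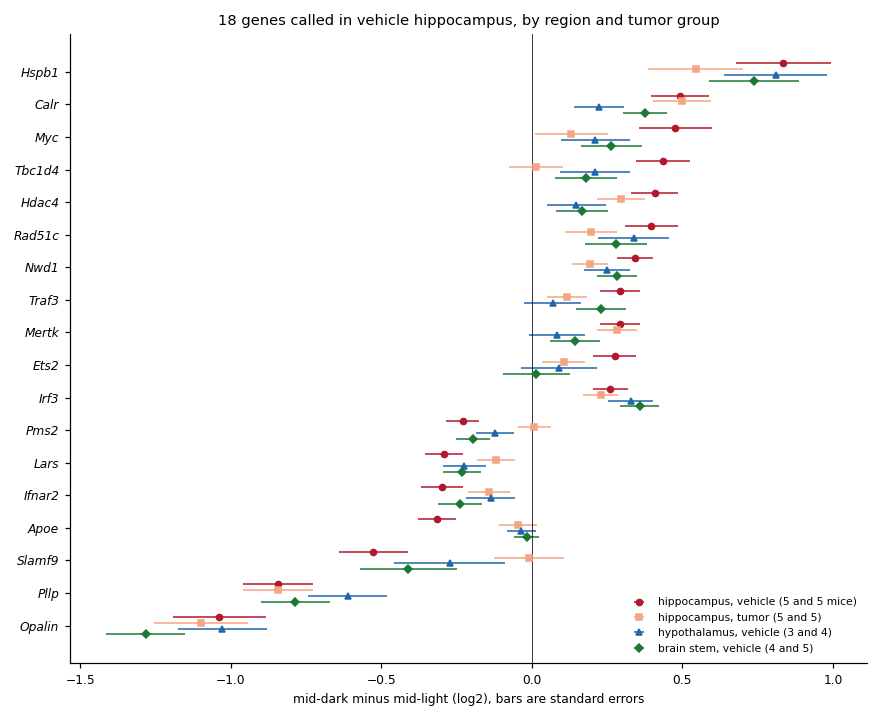
Mid-dark minus mid-light log2 difference (points) with its standard error (bars) for the 18 genes called in vehicle hippocampus, in vehicle and tumor hippocampus and in vehicle hypothalamus and brain stem, with the number of mid-dark and mid-light mice in the key. Opalin, Pllp and Hspb1 lie far from 0 in all 4 sets, whereas Apoe lies away from 0 only in vehicle hippocampus. Apoe values there were tied by rank, so its bar does not measure how its level varied between the mid-light mice. The test between vehicle and tumor mice called 0 genes.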

How the data were processed

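RNA of each dissected region was counted on the nCounter panel. The deposited values are log2 expression values. The authors first subtracted the signal of the negative controls in nSolver, scaled each sample to its positive controls and to the geometric mean of the codeset, and then quantile normalized all samples in Partek. Samples that were outliers in the raw data had been removed before that. No counts were analysed, which leaves the depth unknown, and precision depends on how many mice there were.

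Groups came from the labels, which give each sample's region, injection, collection time and mouse. The linear models were run with limma 3.58.1 under R 4.3.3, two-sided. The ordinary p is that of the same linear model without moderation. Adjustment was by Benjamini-Hochberg over all genes. The 3 regions share mice by label, so the mouse was a random block in their model (consensus correlation 0.105). Label measures were compared by exact permutation over 252 assignments (smallest p 0.00794). The scripts were tested on simulated data. Promoters and plots used Python 3.11.15 and matplotlib 3.10.9. Alternatives changed scaling, filter, samples, test and threshold.

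The members, the 22 gene lists and the tests were chosen with earlier results of these data known. Named were the 18 called genes, the 6 next by p, up to 3 members of each list by p, and Fkbp5, Arc, Fos, Egr1, Timeless, Opalin and Pllp. Other genes are named as members that passed or as examples chosen after their values were seen. Some named items are not reported here.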

Additional observations from a re-analysis of the deposited data

Results flagged for a closer look

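Among 154 groups of 5 mice tested for a value far from the rest (chance gives about 1 in 20), 9 held one. Opalin was at 9.38 in mid-light mouse 30, against 9.80 to 9.91 in the others. Apoe was at 14.01 and Ifnar2 at 9.03 in mid-dark mouse 4, each above the other mid-dark mice. Cx3cr1 was at 10.38 in mid-light mouse 6, above the others. Rpl9 was at 12.94 in mid-light mouse 30, above the others. Csnk2a2 was at 10.19 and Cd3e at -0.37, the lowest value of the table, in mid-light mouse 6, both below the others. Ccl4 was at 3.17 in mid-dark mouse 28, below the others. The 260/280 ratio of mid-dark mouse 12 was 1.79, against 1.97 to 2.03. The Apoe difference between mid-dark and mid-light differed between hippocampus and brain stem of vehicle mice (-0.30, limma, adjusted p = 0.0128), a call that was lost with the reference gene mean subtracted, with or without Asb10, and without mouse 2, 6, 12, 22, 28 or 32.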

How the results depend on the processing

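The 18 genes called at adjusted p under 0.05 were 10 with only the vehicle groups in the fit (9 of them shared with the 18), 10 with the reference gene mean subtracted (8 shared) and 39 at adjusted p under 0.1. Leaving out 1 mouse gave 8 to 24 genes, with 11 without mouse 2, 8 or 30 and 8 without mouse 32. The other settings gave 18 to 23, among them the reference gene mean without Asb10 (18, 17 shared) and the Ttr and Slc17a6 levels as covariates (22, 17 shared), both chosen after seeing the data. Pllp, Opalin, Hspb1 and Apoe passed under each of the 18 settings run for single genes. Every setting started from the deposited quantile normalized values, so none of them freed Apoe from its ties or Calr from its rank steps. None of the 18 genes changed sign. The 128 genes by ordinary p were 56 at p under 0.01 and 17 with the 2 SD limit added. Leaving out 1 mouse gave 102 to 152.

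The test between vehicle and tumor mice called 0 genes throughout. Between hippocampus and hypothalamus the count was 1 gene (Hpgds) with the reference gene mean subtracted and 0 to 2 without 1 mouse (2 without mouse 28). Between hippocampus and brain stem the 1 gene became 0 with the reference gene mean subtracted, with or without Asb10, and 0 or 1 without 1 mouse. Without the mouse block these counts were 0 and 1, so the pairing changed no call. The uncalled genes Fos and Trp73 turned positive, Fos at 0.0229 without mouse 6, 0.0139 without mouse 10, 0.0422 without mouse 12 and 0.0125 with the covariates (-0.26 to 0.0422 without 1 mouse), and Trp73 at 0.0286 without mouse 2, 0.0018 without mouse 32 and 0.0102 with the covariates (-0.088 to 0.0286). The cause of these changes was not tested. Counts were not analysed, so a limit of detection was not computed.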
